A study of Mus musculus with 6 samples.

Results

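Transcripts of 10 histone methylation enzymes with known roles in the oocyte were followed in germinal vesicle (GV) oocytes, the immature eggs whose nucleus is still intact. Members were the genes whose name in the deposited count table equals Ezh1, Ezh2, Eed, Suz12, Kmt2b, Kdm1a, Kdm1b, Setd2, Setdb1 or Ehmt2, each found once, so that 10 of 49315 genes are described. The series asks how replication protein A1 (RPA1), which binds single-stranded DNA, serves DNA repair during oogenesis, and compared 3 Control mice with 3 mice whose oocytes lack Rpa1 (Rpa1 OcKO, an oocyte-specific conditional knockout). All 6 mice were 4 to 5 weeks old and primed with PMSG (pregnant mare serum gonadotropin), and each library came from 1 mouse as a pool of around 20 fully grown oocytes stripped of cumulus cells. The sources used here do not give the strain, the alleles of the Control mice or the Cre line behind the deletion.

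Histone methyltransferases add methyl groups to lysines of the histone tails, and demethylases of the KDM families remove them. Polycomb repressive complex 2 (PRC2) methylates lysine 27 of histone H3 (H3K27): EZH1 or EZH2 is its catalytic subunit, and EED and SUZ12 complete its core. In the oocyte these marks are laid down together with DNA methylation as the genome is prepared for the embryo. KMT2B methylates H3K4, KDM1A and KDM1B demethylate it, SETD2 trimethylates H3K36, and SETDB1 and EHMT2 (G9a) methylate H3K9.

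The 6 libraries held 36280148 to 44575222 counts. Transcripts of 14 oocyte markers summed to 30700 to 46860 CPM (counts per 1000000 counts in the library) in Control and 26790 to 33680 CPM in OcKO. A list of 12 granulosa and cumulus cell markers summed to 60.8 to 105.9 CPM in Control and 98.8 to 118 CPM in OcKO. Within that list Foxl2 had 0 to 2 counts in every library, while Nr5a2 had 434 to 1586 and Cyp19a1 336 to 1353. Inha had 554, 455 and 380 counts in Control and 1309, 443 and 1615 in OcKO. Has2 (195, 90 and 0 counts in OcKO), Nr5a1 (74, 135 and 42) and the theca marker Cyp17a1 (20, 29 and 31) had 0 counts in all Control libraries. Among stroma markers, Dcn was at 0, 282 and 200 counts in Control and 9, 81 and 0 in OcKO, and Col3a1 at 1, 2 and 4 against 44, 42 and 12. The libraries of Cyp19a1 and Fshr overlapped between the groups. Theca and stroma markers summed to 7.08 to 12.5 and 10.2 to 22.3 CPM, and blood and endothelium markers to 83.7 to 123 and 99.7 to 129 CPM. Most of the blood and endothelium sum was 1 gene, Pecam1, at 3865, 2793 and 4339 counts in Control and 5414, 3750 and 4079 in OcKO. In the same list Cdh5 had 0 to 1 counts per library, Hba-a1 and Hbb-bs 2 to 13, and Kdr 0 to 606. Exact permutation tests on these sums gave two-sided p-values of 0.2 to 0.6, where 3 against 3 libraries can give no less than 0.1, and the part of other cells in the results was not tested. From here on, CPM values are scaled with TMM (trimmed mean of M-values). Rpa1, the targeted gene, stood at 156, 155 and 140 CPM in Control against 7.76, 4.14 and 6.84 CPM in OcKO, so its transcript was low in each library labelled as the knockout. The threshold for a call was an adjusted p of 0.05 (Benjamini-Hochberg, over 16060 genes) in edgeR's quasi-likelihood test. By that rule 23 genes were called, 0.143% of those tested (0.137% higher and 0.00623% lower). Of the 10 members, all of which passed the filter on low counts, 0 were called by edgeR or limma voom and 2 by DESeq2. DESeq2 called 1156 of the 17665 genes to which it gave an adjusted p. In edgeR 2 members had an unadjusted p under 0.05, which 11.1% of tested genes had in either direction. In limma voom 3 had it, with Ehmt2 added, where 13.7% of tested genes did. Ehmt2 passed that filter through its OcKO libraries and 1 Control library. Log2 fold changes (OcKO over Control) were positive for 5 members and negative for 5, with a median of 0.14 against 0.01 over all tested genes. By library size alone they were positive for 7, with a median of 0.315 against 0.18. In pooled oocytes, fewer cells holding a transcript and less of it per cell cannot be told apart.

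The members that stood lowest in OcKO relative to Control were both in the PRC2 core, Ezh2 and Suz12. Their promoters are shown first, with that of Ezh1, the alternative catalytic subunit, for contrast. The stretches run from 250 bases before to 15 bases after the RefSeq start of transcription (GRCm38.p6), 5′ to 3′ on the strand of the gene. Capitals mark CCAAT boxes in either orientation (CCAAT or ATTGG) and letters of E2F type. Ezh2 covers chr6:47595016-47595280 (minus strand), Suz12 chr11:79992856-79993120 (plus strand) and Ezh1 chr11:101226449-101226713 (minus strand). The start in RefSeq lies inside the deposited Ezh2 gene and at the end of the other 2.
Ezh2: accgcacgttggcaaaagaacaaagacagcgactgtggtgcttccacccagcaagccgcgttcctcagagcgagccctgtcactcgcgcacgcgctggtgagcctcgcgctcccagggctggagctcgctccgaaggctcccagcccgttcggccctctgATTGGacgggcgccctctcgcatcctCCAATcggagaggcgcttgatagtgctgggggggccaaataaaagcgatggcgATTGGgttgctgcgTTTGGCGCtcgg
Suz12: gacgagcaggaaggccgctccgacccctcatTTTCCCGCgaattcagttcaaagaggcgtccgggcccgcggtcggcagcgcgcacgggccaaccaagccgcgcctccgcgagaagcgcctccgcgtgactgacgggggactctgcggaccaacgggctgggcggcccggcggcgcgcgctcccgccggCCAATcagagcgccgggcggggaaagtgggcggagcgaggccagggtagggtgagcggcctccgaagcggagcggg
Ezh1: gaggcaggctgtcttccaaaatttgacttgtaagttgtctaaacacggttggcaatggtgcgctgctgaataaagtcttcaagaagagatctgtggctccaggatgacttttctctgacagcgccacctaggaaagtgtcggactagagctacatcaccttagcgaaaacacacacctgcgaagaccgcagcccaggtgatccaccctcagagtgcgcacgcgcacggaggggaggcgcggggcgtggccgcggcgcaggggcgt

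Both strands of the 300-base RefSeq windows (250 bases before and 50 after the start) were searched for TTTCCCGC, TTTGGCGC, TTTCGCGC, TTCCCGCC (E2F type; the first and the last can overlap), CCAAT, GCGCATGC (NRF1 type) and the p53 half-site. The tables held windows for 9 of the 10 members, without Kmt2b. Ezh2 held TTTGGCGC from base 4 of the transcript on, letters found in 0.514% of 32851 windows. Suz12 held TTTCCCGC 219 bases before the start, letters found in 1.07% of windows. Each share is for 1 of the 4 E2F-type patterns searched, and the larger share of windows with any of them was not counted. Both windows were also rich in CG pairs. Fewer CG pairs were found in 89.4% of windows than in that of Ezh2, and in 96.5% than in that of Suz12. The shares were not matched for this. None of the E2F-type letters lay in the windows of the other 7 members. A CCAAT box in forward orientation began 64 bases before the start in Ezh2 and 61 before it in Suz12, where 37.4% of windows hold such a box in either orientation. Ezh2 held another 2 in reverse orientation, and Ezh1 held none. Kdm1a held a forward box before the start, Eed a forward box after it, and Setdb1 a reverse box before it. The box was thus not particular to Ezh2 and Suz12. None of the 9 held GCGCATGC, TTTCGCGC, TTCCCGCC or the p53 half-site, which were found in 2.71%, 0.323%, 2.19% and 8.36% of windows. These matches describe letters and do not show a bound factor.

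Ezh2 (ENSMUSG00000029687, chromosome 6, 47530139 to 47595341, minus strand, GRCm38) encodes the main H3K27 methyltransferase of proliferating cells. It stood at 467, 392 and 306 CPM in Control replicates 1 to 3 and at 216, 187 and 213 CPM in OcKO replicates 1 to 3. Every OcKO library lay below every Control library, and the Control libraries spread more widely. The fitted level was 1.89-fold lower in OcKO (log2 fold change -0.92, SE 0.20, 95% interval -1.39 to -0.45), with an unadjusted p of 0.00215 and an edgeR adjusted p of 0.127. It was thus not called over all genes. DESeq2 called it (adjusted p = 0.00235), and limma voom did not (0.187). The log2 fold change lay between -1.04 and -0.75 over the 13 alternative fits.

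Suz12 (ENSMUSG00000017548, chromosome 11, 79993106 to 80034123, plus strand) encodes the scaffold on which the PRC2 core assembles. It held 38.4, 55.2 and 39.4 CPM in Control and 22.6, 28.2 and 19.1 CPM in OcKO, again with no overlap. The fitted level was 1.90-fold lower in OcKO (log2 fold change -0.93, SE 0.29, interval -1.61 to -0.24), with an unadjusted p of 0.0148 and an edgeR adjusted p of 0.277. DESeq2 again gave a smaller adjusted p (0.0224). Without Control replicate 2, the highest library, the unadjusted p was 0.0631 and the log2 fold change -0.71. Suz12 and Ezh2 were the 2 members below an unadjusted p of 0.05, both lower, where 5.21% of tested genes were lower and 5.93% higher by that rule. They were also the 2 members whose libraries did not overlap between the groups, where 8.67% of tested genes were lower and 10.7% higher without overlap. The same 2 were called lower by DESeq2. Among the 17665 genes with an adjusted p there, it called 1156 in either direction, 765 higher and 391 (2.21%) lower. An exon of Suz12 shares 178 bases with Gm26563 on the opposite strand, which had 1 to 71 counts per library against 777 to 2093 for Suz12. Ezh2 shares 174 bases with Gm26625, which had 0 counts.

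The other core members did not share this pattern. Ezh1 (ENSMUSG00000006920, chromosome 11, 101191115 to 101226463, minus strand) encodes the catalytic subunit better known from resting cells. Its levels were 123, 209 and 119.7 CPM in Control and 127, 133 and 144 CPM in OcKO, so Control replicate 2 stood above the other 5 libraries, which lay close together. The log2 fold change was -0.16 (SE 0.25, interval -0.75 to 0.43). It took the positive sign without Control replicate 2 (0.18) and with scaling by library size alone (0.019).

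Eed (ENSMUSG00000030619, chromosome 7, 89954654 to 89980983, minus strand) encodes the subunit that binds trimethylated H3K27 and stimulates the enzyme. It stood at 93.6, 72.9 and 62.7 CPM in Control and at 72.1, 189 and 91.3 CPM in OcKO. OcKO replicate 2 stood alone at the top and the other OcKO libraries lay within the Control range. Its log2 fold change of 0.62 (SE 0.38, interval -0.26 to 1.502) became 0.14 without that library.

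**Figure D1:**
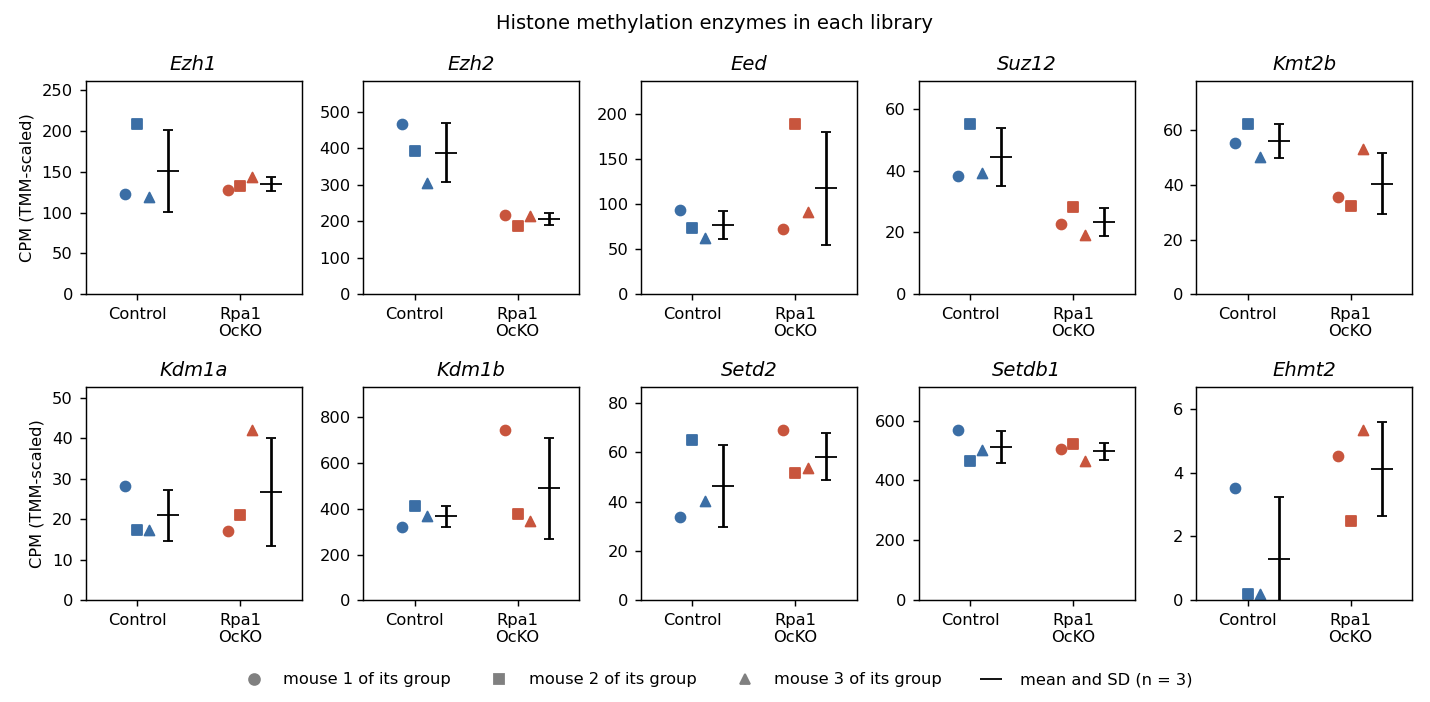
TMM-scaled CPM (vertical axes, each starting at 0) of the 10 members in 3 Control and 3 Rpa1 OcKO libraries; symbols are mice, numbered separately in each group, and bars are means with SD. Ezh2 and Suz12 are the members whose OcKO points all lie below the Control points, while Eed, Kdm1b and Kdm1a each have 1 high OcKO library.

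The balance of the PRC2 catalytic subunits was measured within each library, where scaling between libraries has no part. Per kilobase of exon, Ezh2 was 4.22, 2.09 and 2.85 times as abundant as Ezh1 in Control and 1.90, 1.56 and 1.65 times in OcKO. Every OcKO ratio was below every Control ratio, yet Ezh2 remained the more abundant of the pair in all 6 libraries. Ezh2 made up 67.6% to 80.9% of the pair in Control and 61.0% to 65.5% in OcKO. The mean log2 ratio was 1.55 ± 0.51 in Control and 0.76 ± 0.14 in OcKO (SD, n = 3), a difference of -0.79. The exact two-sided permutation test gave p = 0.1, the smallest that 3 against 3 libraries can give. The difference moved between -1.03 (without Control replicate 2) and -0.52 (without Control replicate 1), so it depends in size on single Control libraries. Across the 6 libraries Ezh2 and Suz12 had a Pearson's r of 0.788 on log2 CPM, the highest of the 45 member pairs, as a description over points that fall into the 2 groups. Ezh2 and Kmt2b were close behind at 0.772, and the lowest value was -0.817 for Suz12 and Ehmt2. Within Control the order of Ezh2 and Suz12 differed: Ezh2 was highest in replicate 1 and Suz12 in replicate 2.

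**Figure D2:**
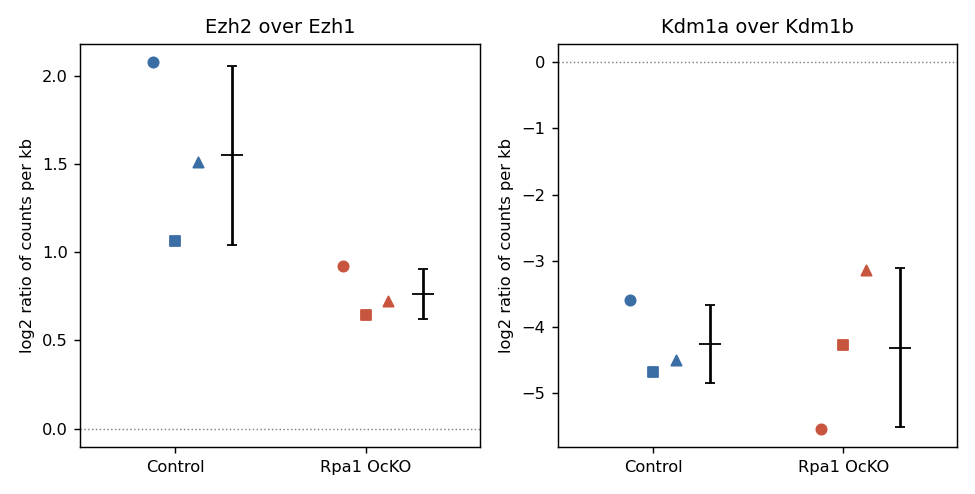
Log2 ratio of counts per kb (vertical axes; dotted line, equal levels) of Ezh2 over Ezh1 and of Kdm1a over Kdm1b in each library, with group means and SD (n = 3). The 3 OcKO points for Ezh2 over Ezh1 lie below the 3 Control points, and those for Kdm1a over Kdm1b lie on both sides of the Control points.

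Among the genes for H3K4 methylation, Kmt2b and the demethylase genes pointed in different directions and none was called. Kmt2b (ENSMUSG00000006307, chromosome 7, 30568858 to 30588726, minus strand) encodes the methyltransferase that provides much of the H3K4 trimethylation of the oocyte. It held 55.5, 62.5 and 50.2 CPM in Control and 35.7, 32.4 and 53.3 CPM in OcKO. OcKO replicates 1 and 2 lay below all Control libraries, and replicate 3 lay among them. The log2 fold change was -0.47 (SE 0.27, interval -1.10 to 0.16), and -0.72 without OcKO replicate 3, where the unadjusted p was 0.0292 and the edgeR adjusted p 0.444.

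Kdm1b (ENSMUSG00000038080, chromosome 13, 47043499 to 47084613, plus strand) encodes the H3K4 demethylase (LSD2) needed to set maternal imprints in growing oocytes. It stood at 319, 413 and 369 CPM in Control and at 745, 378 and 347 CPM in OcKO. A single library, OcKO replicate 1, was far above the rest, and the log2 fold change of 0.42 (SE 0.31, interval -0.31 to 1.14) was -0.025 without it.

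Kdm1a (ENSMUSG00000036940, chromosome 4, 136550540 to 136602723, minus strand) encodes the related demethylase LSD1. It was scarcer, at 28.3, 17.3 and 17.4 CPM in Control and 17.2, 21.0 and 42.1 CPM in OcKO. Here OcKO replicate 3 was the high library. Its log2 fold change of 0.35 (SE 0.43, interval -0.66 to 1.36) was -0.14 without it. Per kilobase Kdm1b was 12.1, 25.6 and 22.7 times as abundant as Kdm1a in Control and 46.5, 19.3 and 8.82 times in OcKO. The log2 ratio of Kdm1a to Kdm1b was -4.26 ± 0.58 in Control and -4.32 ± 1.20 in OcKO (SD, n = 3; exact permutation p = 1), and the OcKO values lay on both sides of Control. The high libraries for Eed, Kdm1b and Kdm1a were thus 3 different OcKO libraries.

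The H3K36 member, Setd2 (ENSMUSG00000044791, chromosome 9, 110532597 to 110618633, plus strand), encodes the enzyme that trimethylates this lysine, a mark that guides DNA methylation over transcribed genes in the oocyte. It held 33.6, 65.1 and 40.3 CPM in Control and 69.0, 51.7 and 53.7 CPM in OcKO. Control replicate 2 stood among the OcKO libraries and the other Control libraries below them. The log2 fold change was 0.33 (SE 0.31, interval -0.39 to 1.04), and 0.68 without Control replicate 2 (edgeR adjusted p = 0.487).

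The H3K9 methyltransferase genes were the steadiest member in both groups (Setdb1) and the most variable in Control (Ehmt2). Setdb1 (ENSMUSG00000015697, chromosome 3, 95323525 to 95357202, minus strand), whose product acts in the silencing of retrotransposons, held 569, 465 and 502 CPM in Control and 506, 520 and 465 CPM in OcKO. The groups overlapped, and the log2 fold change was -0.04 (SE 0.16, interval -0.41 to 0.33). Its sign turned with scaling by library size alone (0.12) and without Control replicate 1 (0.035) or OcKO replicate 3 (0.00186). The SD was 10.3% of the mean in Control and 5.71% in OcKO, the smallest of the members in each group. Setdb1 shares 75 exonic bases with Cers2, which lies on the opposite strand and had 1924 to 3373 counts.

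Ehmt2 (ENSMUSG00000013787, chromosome 17, 34898469 to 34914052, plus strand) was near the lower end of detection. It had 128, 7 and 7 counts in Control and 198, 113 and 217 counts in OcKO, or 3.53, 0.185 and 0.202 CPM against 4.52, 2.49 and 5.34 CPM. Control replicate 1 lay within the OcKO range and the other Control libraries more than an order of magnitude below it. The SD was 148% of the mean in Control. Its log2 fold change was 1.65 with a wide error (SE 1.29, interval -1.35 to 4.66, edgeR adjusted p = 0.734). It was 4.39 without Control replicate 1 (unadjusted p = 0.00548, edgeR adjusted p = 0.326) and 2.87 with limma voom (unadjusted p = 0.0423, adjusted p = 0.347). With 7 counts in Control replicates 2 and 3, Ehmt2 passed the filter on low counts through its OcKO libraries and Control replicate 1. A difference was thus favoured by its selection, and its p-values are given as description. The gene of its partner in the G9a-GLP heterodimer, Ehmt1, named after its values were seen, had 74.43 ± 25.004 CPM in Control against 70.6 ± 19.7 CPM in the knockout (SD, n = 3).

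**Figure D3:**
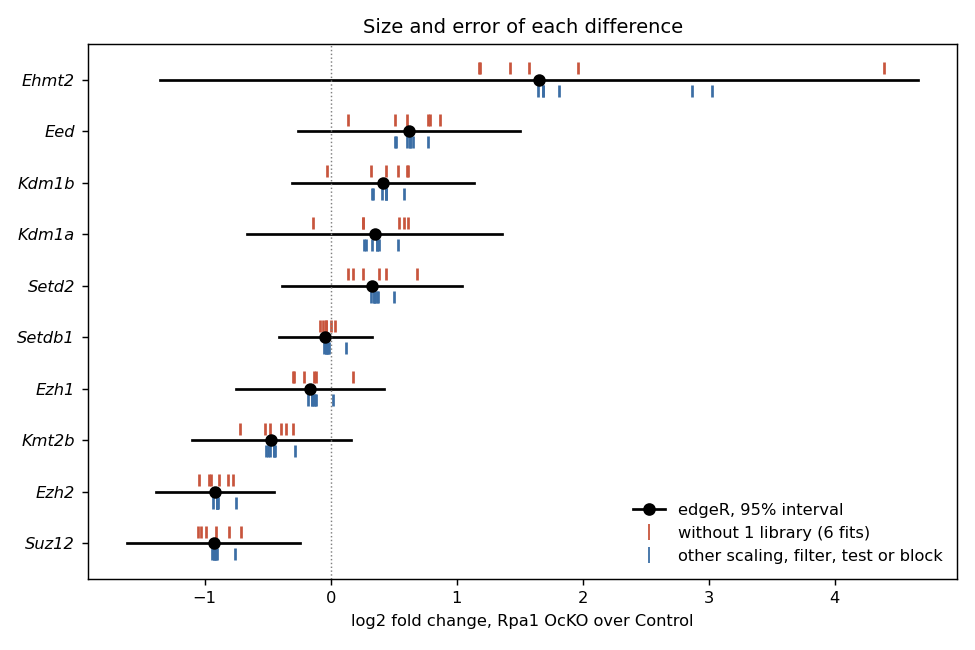
Log2 fold change of each member, OcKO over Control (horizontal axis), by edgeR with its 95% interval (black), in the 6 fits without 1 library (red marks) and in the 7 fits with another scaling, filter, test or block (blue marks; 6 for Ehmt2). The intervals of Ezh2 and Suz12 lie below 0 and those of the other 8 members include 0.

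Levels were also set in order per kilobase of exon, since longer transcripts collect more reads. In Control, Kdm1b (76.0 ± 9.73 CPM per kb, SD, n = 3), Setdb1 (74.7 ± 7.72) and Ezh2 (58.2 ± 12.1) led, and neighbours in that order overlapped between libraries. Ezh1 (20.25 ± 6.80) and Eed (19.96 ± 4.11) followed and overlapped. Suz12 (8.96 ± 1.91) lay apart from Eed above it and from Kmt2b (5.84 ± 0.642) below it. Kmt2b, Setd2 (4.31 ± 1.54) and Kdm1a (4.06 ± 1.22) overlapped in turn, and Ehmt2 (0.238 ± 0.351) lay below every library of the others.

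In OcKO, Kdm1b (101 ± 45.9 CPM per kb) and Setdb1 (72.55 ± 4.14) still led and overlapped, and Ezh2 (30.75 ± 2.45) now lay below every Setdb1 library and overlapped Eed (30.7 ± 16.4). Ezh1 (18.1 ± 1.14) overlapped Eed and lay above every Setd2 library. Suz12 (4.71 ± 0.926), the sixth of the members in Control, was the eighth in OcKO, below Setd2 (5.41 ± 0.881) and Kdm1a (5.17 ± 2.59), with overlapping libraries, as were those of Kmt2b (4.22 ± 1.17). Ehmt2 (0.750 ± 0.268) was again apart at the bottom. Suz12 was thus the scarcest PRC2 core transcript in both groups. Among all tested genes, the mean level per kb of Ezh2 stood at percentile 93.2 in Control and 87.2 in OcKO, and that of Suz12 at 67.8 and 56.0.

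**Figure D4:**
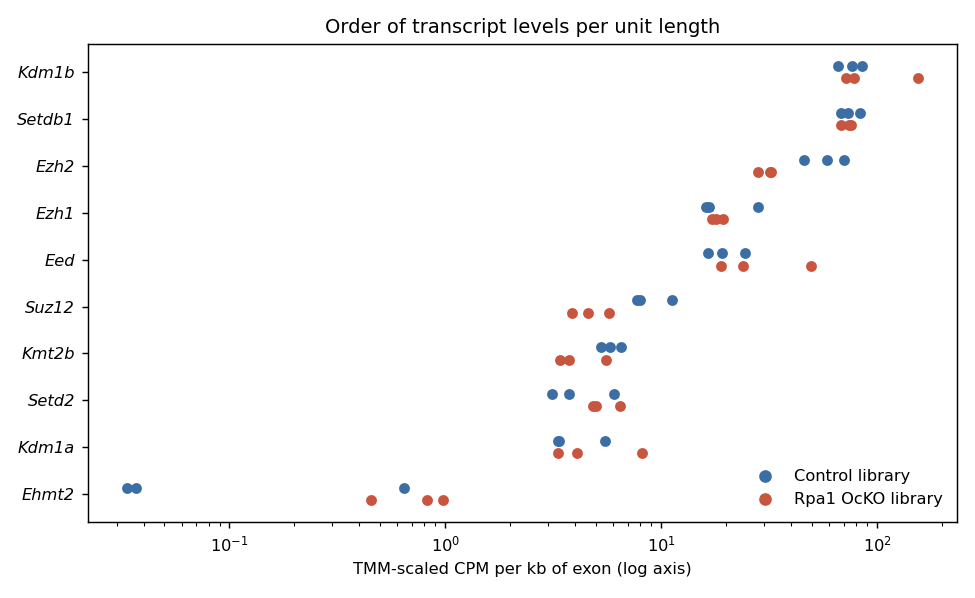
TMM-scaled CPM per kb of exon (horizontal log axis) of the 10 members, each point 1 library, ordered by the Control mean. Kdm1b and Setdb1 lead in both groups, Ezh2 lies below Setdb1 in all 3 OcKO libraries, and Ehmt2 is lowest.

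The surrounding machinery was read from 9 lists of related genes. Of 92 tested genes 0 were called by edgeR or limma voom and 3 by DESeq2, all higher. Among the 17665 genes with an adjusted p in DESeq2, 765 were called higher and 391 lower. At an unadjusted p under 0.05 in edgeR, 14 related genes were lower and 5 higher. These 19 genes are 20.7% of the lists, against 11.1% of all tested genes. Of the 5 higher genes, Kdm4c, Kmt5c and Cbx8 had few counts in Control and passed the filter through their OcKO counts. The split depended on scaling and on single libraries. By library size alone, which moved the all-gene median up by 0.17 on the log2 scale, 4 were lower and 6 higher, 10.9% of the lists against 11.2% of all genes. Without Control replicate 1, 4 were lower and 3 higher (7.61% of the lists against 10.3% of all genes). Without Control replicate 2, 6 were lower and 6 higher (13.0% against 10.1%). The median log2 fold change was -0.18 over the lists and 0.01 over all tested genes, and -0.02 and 0.18 by library size alone.

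Of 10 tested PRC2 accessory genes 3 were lower at an unadjusted p under 0.05 and 0 higher, and the libraries of all 3 did not overlap. By the first rule 5.21% of all tested genes were lower and 5.93% higher, which is the background for each list below as well. Without overlap, 8.67% of all tested genes were lower. Jarid2, which encodes a cofactor that recruits and stimulates PRC2, stood at 217, 237 and 275 CPM in Control and 189, 126 and 125 CPM in OcKO (edgeR adjusted p = 0.263). AU022751 is the older symbol of Ezhip, a germ cell inhibitor of PRC2, and was abundant at 2096, 1798 and 1645 CPM in Control and 857, 1444 and 1220 CPM in OcKO (adjusted p = 0.318). The other was Phf1, a PRC2 cofactor that binds methylated H3K36, at 388 ± 43.8 and 269 ± 43.2 CPM (SD, n = 3). By library size alone the list held 1 gene under 0.05, which was lower. The histone-binding subunits Rbbp4 and Rbbp7 had log2 fold changes of 0.27 and -0.06 (SE 0.28 and 0.24). Epop was too low to be tested.

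Both tested H3K27 demethylase genes had negative log2 fold changes that did not pass: Kdm6a (239 ± 34.5 and 167 ± 80.3 CPM, SD, n = 3) and Kdm6b (38.4 ± 18.6 and 24.4 ± 5.39 CPM). In PRC1, the complex that ubiquitinates histone H2A, 2 of 17 genes were lower and 1 higher at an unadjusted p under 0.05. Kdm2b, which brings a variant PRC1 to CpG islands, stood at 387 ± 53.2 and 262 ± 56.5 CPM, and its exons share 627 bases with Rnf34 on the opposite strand.

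Of 18 H3K4 methyltransferase and shared subunit genes 4 were lower and 1 higher by that rule, beside 5.21% and 5.93% of all tested genes. By library size alone 1 was lower and 1 higher, and without Control replicate 1 or 2 the count was 2 lower and 0 higher. Each of these was 11.1% of the list, against 11.2%, 10.3% and 10.1% of all tested genes. Wdr82, a subunit of the SETD1 complexes, had 120.5 ± 27.9 against 67.9 ± 14.4 CPM (SD, n = 3; edgeR adjusted p = 0.263). Wdr5, shared by all KMT2 complexes including that of KMT2B, stood at 620 ± 86.0 and 424 ± 49.3 CPM (adjusted p = 0.293). The higher gene was Ash2l, another shared subunit, at 69.1 ± 5.24 and 103 ± 24.6 CPM (adjusted p = 0.411). Of 11 H3K4 demethylases and KDM1 partners 2 were lower and 0 higher. Hdac2 (38.4 ± 27.4 and 12.6 ± 3.55 CPM) and Rcor1 (30.6 ± 11.7 and 11.99 ± 6.56 CPM) encode partners of KDM1A in the CoREST complex, and the libraries of both overlapped between the groups.

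Of 13 H3K9 methyltransferases and partners 0 had an unadjusted p under 0.05. The smallest p belonged to Suv39h2 (27.4 ± 13.5 and 15.75 ± 4.04 CPM, SD, n = 3) and Setdb2 (38.65 ± 3.37 and 27.05 ± 12.3 CPM), and exons of Suv39h2 overlap those of Dclre1c on the opposite strand. Of 7 H3K36 genes 1 was lower: Nsd1, which encodes an H3K36 dimethyltransferase, held 317, 330 and 325 CPM in Control and 195, 267 and 233 CPM in OcKO (edgeR adjusted p = 0.343). Nsd3 stood at 19.1 ± 7.55 and 10.2 ± 1.83 CPM. Among 4 H3K79 and H4K20 genes 1 was higher and 0 lower, and Kmt5a, the H4K20 monomethyltransferase, stood at 32.2 ± 13.7 and 20.9 ± 5.74 CPM. Of 10 H3K9 demethylases 2 were lower and 2 higher, and Kdm7a was the lower one with the smaller p (51.3 ± 19.3 and 21.0 ± 9.08 CPM; adjusted p = 0.310).

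**Figure D5:**
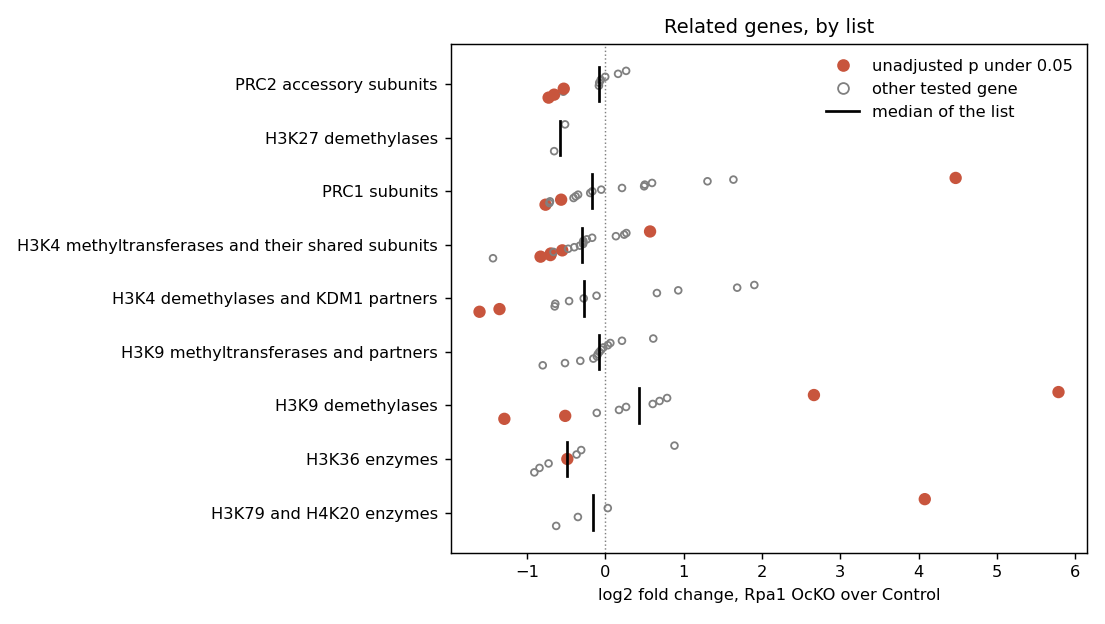
Log2 fold change, OcKO over Control (horizontal axis), of 92 tested genes in 9 lists of related histone methylation genes (rows). Filled points have an unadjusted p under 0.05 (14 lower, 5 higher), bars are medians of the lists, and the points beyond 4 are genes with few counts in Control.

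The genes whose pattern over the 6 libraries was most like that of Ezh2 were Pacsin2, Osbpl8 and Wasl, among 9247 named genes with a mean of at least 5 CPM. Their Pearson's r on log2 CPM was 0.994, 0.993 and 0.992. Pacsin2, which encodes a membrane-bending protein, stood at 801, 688 and 531 CPM in Control and 402, 311 and 391 CPM in OcKO. Osbpl8, which encodes a lipid transfer protein, stood at 93.7 ± 31.9 and 38.5 ± 5.97 CPM and Wasl, which encodes the actin regulator N-WASP, at 149.6 ± 32.4 and 64.5 ± 7.14 CPM (SD, n = 3). None of the 3 was called by edgeR (adjusted p = 0.150, 0.152 and 0.120) or limma voom (0.195, 0.213 and 0.185), and DESeq2 called all 3 lower (0.00896, 0.00573 and 6.5e-05). The 3 were chosen by likeness to Ezh2 over these same libraries. A lower level in OcKO was therefore built into their selection, and their p-values are given as description.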

How the data were processed

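RNA of 6 GV oocyte pools was made into libraries with a low-input kit that does not mark strand. The submitters' processing notes name Trimmomatic 0.36 for trimming, STAR 2.5.2b for alignment, the build GRCm38 and Subread 1.5.2 (featureCounts) for counting. The sources used here do not give the annotation release, the strand setting or the treatment of reads with several matches. The authors deposited raw counts per gene in 1 joint table and again for each sample alone, and 0 values differed between them. Exon lengths and coordinates are those the authors deposited (featureCounts columns).

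Counts were tested with edgeR 4.0.16 (glmQLFit and glmQLFTest, TMM, filterByExpr) in R 4.3.3, with Benjamini-Hochberg adjustment over 16060 genes. SEs were taken from the log2 fold changes and the square roots of F. Alternatives were scaling by library size or DESeq2 size factors, no filter beyond 1 count, a minimum of 5 CPM, DESeq2 1.42.0, limma voom 3.58.1, a replicate block and leaving out each library. Genes named are the 10 members, Rpa1, the 2 members of each related list with the smallest p, and the 3 genes most like the member with the smallest p. Phf1, Ash2l, Rbbp4, Rbbp7, Ehmt1 and Kdm3a were chosen after their values were seen. Members and lists were chosen with earlier results of these data known, as were the motifs. The printed promoter stretch was set after the matches were seen. The scripts were tested on simulated data. No libraries were duplicates (chi-square of at least 122.7 per degree of freedom in each pair). A single count equals 0.0224 to 0.0276 CPM, and without molecular identifiers reads are not counts of separate molecules. Each library is 1 mouse, so the spread holds that of animals, oocytes and library preparation.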

Additional observations from a re-analysis of the deposited data

How the results depend on the processing

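Ezh2 and Suz12 were lower in OcKO in all 13 alternative fits, and Ezh2 had an unadjusted p under 0.05 in each. The cause was not tested for the shifts that follow. edgeR called 23 genes (22 higher, 1 lower), against 72 at a minimum of 5 CPM (64 and 8), 0 with the replicate block, 1156 by DESeq2 (765 and 391), 1 by limma voom and 0 to 5 without 1 library. Members called were 2 by DESeq2 and 0 in every other fit. Members under an unadjusted p of 0.05 numbered 2 in edgeR with all libraries, 3 in limma voom, and 1 to 3 without 1 library (1 without Control replicate 2; 3 without Control replicate 1 or OcKO replicate 3). Related genes under it numbered 19, against 10 by library size alone, 11 with the replicate block and 7 to 16 without 1 library (7 without Control replicate 1 and 12 without Control replicate 2; leaving out OcKO replicate 1 gave 10, OcKO replicate 3 gave 11). The Rpa1 log2 fold change was -4.63 with the replicate block (adjusted p = 0.159) and -4.78 to -4.33 without 1 library. Without 1 library its adjusted p was over 0.05 without Control replicate 2 (0.0526), Control replicate 3 (0.0588) or OcKO replicate 3 (0.0959). The sign turned for Ezh1 (0.019 by library size alone; -0.29 to 0.18 without 1 library, positive without Control replicate 2), Setdb1 (0.12 by library size alone; -0.081 to 0.035 without 1 library, positive without Control replicate 1 and, at 0.00186, OcKO replicate 3), Kdm1a (-0.14 to 0.62, negative without OcKO replicate 3) and Kdm1b (-0.025 to 0.61, negative without OcKO replicate 1). The difference in the log2 ratio of Kdm1a to Kdm1b was -0.06, and -0.65 to 0.55 without 1 library (0.28 without Control replicate 1, 0.55 without OcKO replicate 1). That of Ezh2 to Ezh1 was -1.03 to -0.52 without 1 library, and -0.79 paired by mouse number (exact sign-flip p = 0.25, the smallest that 3 pairs can give). Deviations from the group means correlated at -0.037, -0.0448 and -0.045 for same-numbered libraries and at 0.0135 to 0.0309 for the others. These values gave no sign of pairing by mouse number, but they do not show that the mice were unpaired. Ehmt2 had a log2 fold change of 3.03 with the replicate block and was not tested at a minimum of 5 CPM. Its Control counts were as low as 7.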

Other observations

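Kdm4c, Kmt5c and Cbx8, which encode enzymes and a reader of histone methylation, had few counts in Control and more in every OcKO library. None was called by edgeR, and 10.7% of all tested genes were higher in OcKO with no overlap of libraries. These 3 genes passed the filter on low counts only through their OcKO libraries, so a difference was built into their selection, and their p-values are given as description. Kdm4c, which encodes an H3K9 and H3K36 demethylase, had 2, 2 and 0 counts in Control and 136, 30 and 111 in OcKO (edgeR adjusted p = 0.156; DESeq2 adjusted p = 0.000512). Kmt5c, which encodes an H4K20 methyltransferase of heterochromatin, had 4, 34 and 2 counts in Control and 201, 124 and 441 in OcKO (edgeR adjusted p = 0.284; DESeq2 adjusted p = 0.00902). Cbx8, which encodes a PRC1 subunit that reads methylated H3K27, had 1, 0 and 19 counts in Control and 315, 131 and 115 in OcKO (edgeR adjusted p = 0.375; DESeq2 adjusted p = 0.0364). Kdm3a, an H3K9 demethylase gene, was not nearly silent in Control, with 16, 305 and 52 counts there and 1273, 662 and 799 in OcKO. It was called neither by edgeR (adjusted p = 0.369) nor by DESeq2. The 3 OcKO libraries had 15694, 17901 and 17002 genes with at least 10 counts and the Control libraries 14629, 14494 and 15491, and the part of this in these genes was not tested.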
